A study of Mus musculus with 18 samples.

Results

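Hepatocyte nuclei pulled from fresh liver were compared between fasted and fed female mice, gene by gene, with attention to genes outside the pathways of lipid and sterol metabolism. These libraries are the fresh-liver immunoprecipitates (IP) of the series, named in the count table as 3 fed and 3 fasted columns with the letters A, B and C, and they make up 6 of its 18 libraries. Of 20105 genes in the table, 12548 passed the filter on low counts and were tested. A list of 246 genes of fatty acid, triglyceride, ketone and sterol metabolism was set aside, of which 228 were tested, and its members are not described below except Fgf21, Angptl4 and Slc25a20, which other lists also hold, and Cpt1a, which lies beside a gene named here. The list was not complete, and Acot1 and Acot2 are lipid genes outside it. Cyp2c70, which makes muricholic acids, is outside it too.

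HEP-INTACT mice carry a nuclear tag in hepatocytes, by which hepatocyte nuclei can be captured on beads from a suspension of liver nuclei. The promoter that drives the tag and the strain background are not given in the sources used here. Fed mice ate ad libitum, fasted mice had no food for 16 h from zeitgeber time 12, when lights go off and mice begin to eat, and both groups were killed at the same hour. All 6 mice carried the tag, each library came from 1 mouse, and the feeding state was the only labelled difference between the 2 groups. The supernatant of the same livers, which holds the nuclei that did not bind, served as a comparison in fed and in fasted mice (n = 3 each).

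Total counts ran from 25675086 to 54166985 in the fed and from 33242961 to 54434263 in the fasted libraries. Levels are given as CPM, the counts of a gene relative to the library total, scaled with TMM factors over the 18 libraries of the series, and values of the 3 fed and 3 fasted libraries are always given in the order A, B, C. The label of hepatocyte nuclei was checked against markers. The summed level of 21 hepatocyte markers was 19459 to 27496 CPM in fed and 26287 to 34721 CPM in fasted IP, against means of 982 and 1603 CPM in fed and fasted supernatant. Summed endothelial markers stood at 88.9 to 169 CPM in fed and 46.5 to 105 CPM in fasted IP, stellate cell markers at 78.6 to 139 and 58.8 to 75.04 CPM, Kupffer cell markers at 15.6 to 28.2 and 18.7 to 23.3 CPM, lymphocyte markers at 328 to 445 and 354 to 371 CPM, and neutrophil and erythroid markers, of which 3 of 9 were at 0 in all 6 libraries, at 3.09 to 4.18 and 1.237 to 1.61 CPM. The endothelial, Kupffer cell, stellate cell and lymphocyte sums were between 931 and 7334 CPM in supernatant. Cholangiocyte markers summed to 650 to 678 CPM in fed and 270 to 309 CPM in fasted IP and to 16.1 and 15.9 CPM in fed and fasted supernatant, and Pkhd1 made up most of the IP sums. In tissue nuclei a fall can reflect fewer nuclei that express a gene or less RNA in each nucleus, and the 2 cannot be told apart here.

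Fed library C stood apart most from its group. The SD of its log2 differences from the mean of the other 2 fed libraries was 0.391 over 8429 genes, against 0.266 to 0.349 for the other 5 libraries. Its hepatocyte markers had the lowest sum of the 6. Egfr, the receptor for epidermal growth factor, was at 688, 741 and 4384 CPM in fed and at 5137, 3341 and 4785 CPM in fasted libraries, so that fed C lay among the fasted libraries. Its change of 1.19 ± 0.89 (SE) did not pass the test (adjusted p = 0.24), and without fed C it was 2.65 with an adjusted p of 0.00143. Igf1, which encodes insulin-like growth factor 1, was at 456, 779 and 2937 CPM in the fed libraries and 1864, 1173 and 653 CPM in the fasted ones, and Socs2, a feedback inhibitor of growth hormone signalling, at 5.6, 9.85 and 61.9 CPM in the fed libraries and 17.5, 6.3 and 14.2 CPM in the fasted ones. Both had their highest level in fed C, and neither passed the test (adjusted p = 0.871 for Igf1 and 0.395 for Socs2).

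Fasting is known to lower insulin and to raise glucagon and glucocorticoid hormones, which act on hepatocytes through forkhead, cAMP-responsive and glucocorticoid receptor pathways. The liver clock responds to feeding time, and its PAR bZIP factors, among them Dbp, bind D-box elements in the promoters of liver genes. Hepatocytes also make most plasma proteins and carry the enzymes that modify drugs and steroids, many of which differ by sex and by position in the lobule. Because nuclei were used and no poly-A selection was made, the counts include unspliced transcripts, so the levels are those of nuclear RNA and not of cytoplasmic mRNA or protein.

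Promoters are shown for genes whose nuclear RNA differed with fasting and that carry a motif of the clock or of cAMP signalling. Each is the 250 bases before the start of the RefSeq gene on GRCm38.p6, 5′ to 3′ on the gene's strand, with the motif in capitals. D-box matches (TTATGTAA or its reverse complement TTACATAA) are marked in Per3 at chr4:151044666-151044915 (minus strand), Ptgds at chr2:25469750-25469999 (minus strand), Ces1c at chr8:93131284-93131533 (minus strand) and Alb at chr5:90460620-90460869 (plus strand). An E-box (CACGTG, its own reverse complement) is marked in Per1 at chr11:69098699-69098948 (plus strand), and a full cAMP response element (TGACGTCA, its own reverse complement) in Rps9 at chr7:3703791-3704040 (plus strand).
Per3: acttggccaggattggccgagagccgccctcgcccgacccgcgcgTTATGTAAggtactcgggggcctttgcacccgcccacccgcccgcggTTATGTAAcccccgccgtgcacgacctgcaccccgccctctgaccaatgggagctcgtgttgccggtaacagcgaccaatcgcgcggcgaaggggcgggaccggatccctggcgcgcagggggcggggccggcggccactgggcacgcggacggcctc
Ptgds: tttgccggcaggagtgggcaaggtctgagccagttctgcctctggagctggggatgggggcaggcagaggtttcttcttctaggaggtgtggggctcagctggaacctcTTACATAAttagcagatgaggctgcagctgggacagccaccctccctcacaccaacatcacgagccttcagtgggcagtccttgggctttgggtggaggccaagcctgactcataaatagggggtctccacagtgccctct
Ces1c: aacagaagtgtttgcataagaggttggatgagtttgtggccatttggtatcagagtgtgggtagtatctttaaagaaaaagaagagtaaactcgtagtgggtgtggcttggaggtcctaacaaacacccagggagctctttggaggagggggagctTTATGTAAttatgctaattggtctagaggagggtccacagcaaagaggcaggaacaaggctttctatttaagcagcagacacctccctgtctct
Alb: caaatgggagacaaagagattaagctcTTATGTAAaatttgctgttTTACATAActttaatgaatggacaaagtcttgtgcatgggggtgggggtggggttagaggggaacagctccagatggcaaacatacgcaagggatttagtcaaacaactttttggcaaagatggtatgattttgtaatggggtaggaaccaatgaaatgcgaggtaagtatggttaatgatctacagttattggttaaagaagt
Per1: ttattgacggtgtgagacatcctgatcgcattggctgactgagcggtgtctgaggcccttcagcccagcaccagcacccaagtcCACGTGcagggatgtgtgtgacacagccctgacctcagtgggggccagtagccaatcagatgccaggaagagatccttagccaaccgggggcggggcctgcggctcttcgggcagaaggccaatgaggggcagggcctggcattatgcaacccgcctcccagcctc
Rps9: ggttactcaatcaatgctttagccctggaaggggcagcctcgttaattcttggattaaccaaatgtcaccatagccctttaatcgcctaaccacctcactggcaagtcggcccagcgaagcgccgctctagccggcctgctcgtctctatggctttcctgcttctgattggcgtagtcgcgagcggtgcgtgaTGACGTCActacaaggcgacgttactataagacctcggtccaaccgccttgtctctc

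The first 3 of these genes fell with fasting and the other 3 rose, with values given below. Per3 and Alb, which moved in opposite directions, each hold 2 D-box matches. In the full window of 300 bases, which runs to 50 bases past the start, 0.778% of the 9644 tested genes with a RefSeq promoter had a D-box match on either strand, as did 0.493% of the 1217 genes called higher and 1.08% of the 1209 genes called lower. In counts these were 75 genes, of which 6 were called higher and 13 lower. An E-box stood in 11.5% of all tested promoters, in 12.7% of those called higher and 10.5% of those called lower, and in 4 of 13 core clock genes with a promoter (30.8%). The full cAMP response element stood in 3.57% of all, 5.26% of the higher and 1.99% of the lower genes, and in 4 of 55 ribosomal protein genes (7.27%). A match is a string of letters in the window and was not tested for binding.

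Fasting changed 3145 of the 12548 tested genes, 25.1% of them, at a Benjamini-Hochberg adjusted p under 0.05 in edgeR's quasi-likelihood test. In fasted nuclei 1559 genes (12.4%) were higher and 1586 (12.6%) lower, and the median log2 change of all tested genes was 0.01. TMM scaling sets most genes near 0, so a shift of all nuclear RNA together would not show in these values. A log2 change of 1 is a doubling, and the log2 changes of single genes are given ± SE, with n = 3 libraries against 3. Among the called genes 553 rose and 708 fell by at least 1 log2 unit, and 51 rose and 64 fell by at least 3. In 5628 genes, or 44.9%, the 3 fasted libraries did not overlap the 3 fed ones. The count of called genes rested in part on single libraries, since it was 1429 without fasted A, 1943 without fed B and 2050 without fed A. A test of changes beyond 2-fold (edgeR's glmTreat) left 81 of the 312 called genes named by the rules of the processing section.

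Gene lists moved unevenly around that background of 12.4% higher and 12.6% lower genes. Each list count below is to be read against these shares. The lists with the largest shares of higher members were proteasome subunits (32 of 46), cytosolic ribosomal proteins (41 of 73), glucocorticoid-responsive genes (11 of 26), ribosome biogenesis genes (27 of 64), translation factors (26 of 63) and cytosolic heat shock genes (16 of 42). Those with the largest shares of lower members among lists of at least 18 tested genes were pericentral hepatocyte genes (17 of 35), complement and coagulation genes (25 of 54), female-biased liver genes (18 of 39), male-biased liver genes (12 of 27), cytochrome P450s (26 of 61) and core clock genes (7 of 18). For chromatin modifiers 3 of 68 were higher and 6 lower (2 lower without fasted A), and for autophagy and lysosome genes 7 of 59 were higher and 3 lower, the former count being 4, 4 and 3 when fed A, fed C and fasted A were left out in turn. Counts in lists rested on single libraries as the total did, most often on fasted A, and where a list's count of 4 or more moved by over 1.5 times without a library, that library and the count are given with it. Smaller counts move that far with 1 or 2 genes.

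**Figure D1:**
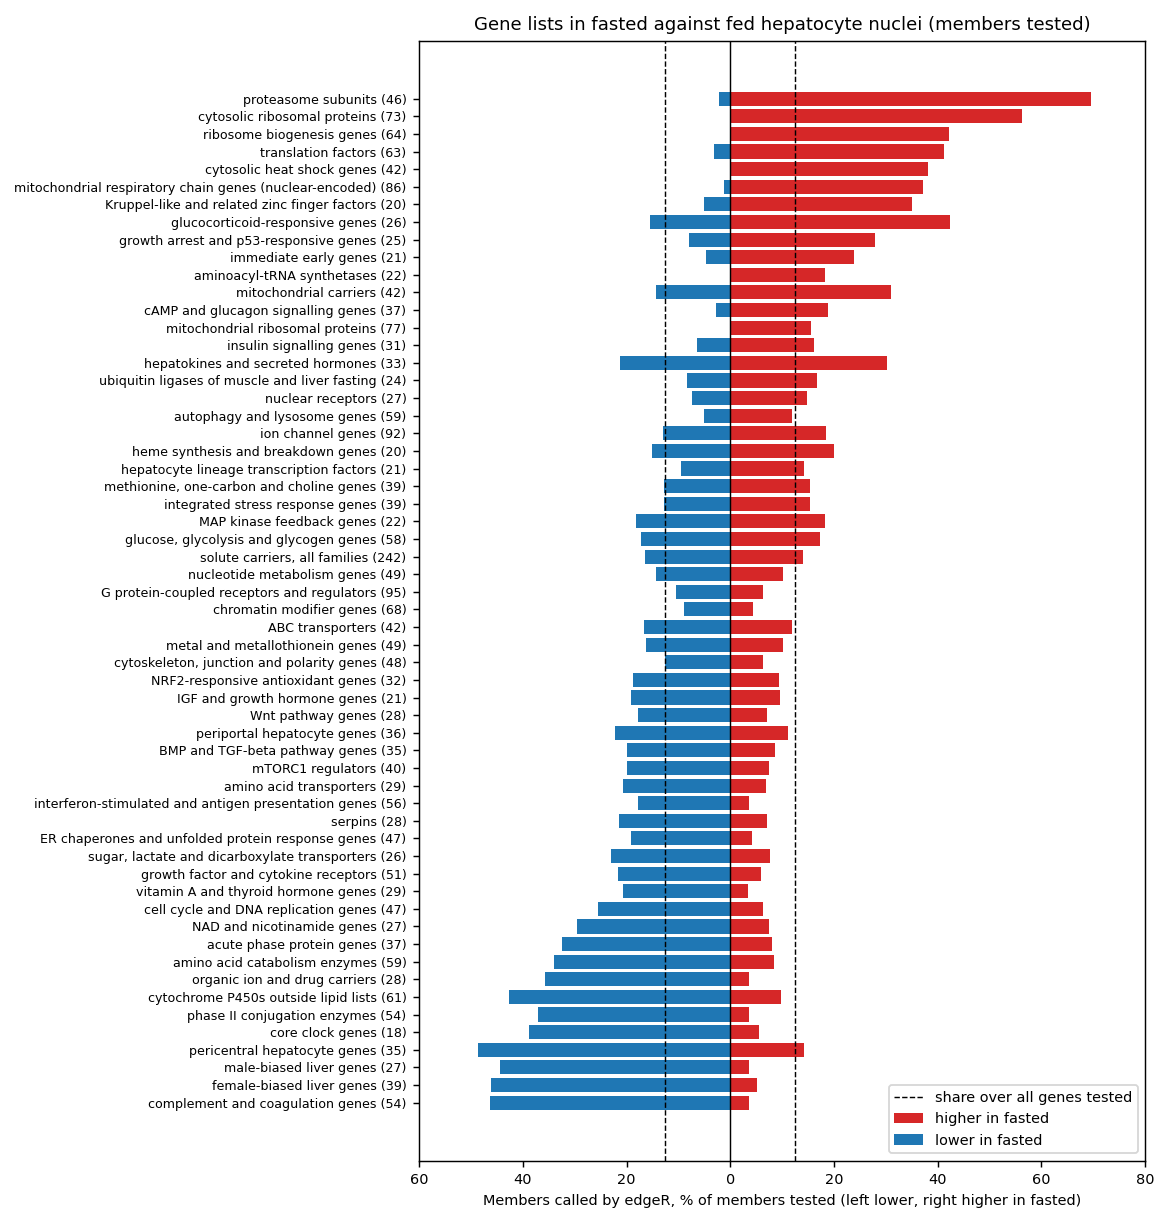
Share of tested members called higher (red, to the right) or lower (blue, to the left) in fasted hepatocyte nuclei, in percent, for each gene list with at least 18 tested members, whose number stands in brackets. Dashed lines mark the shares over all tested genes, 12.4% higher and 12.6% lower; proteasome subunits and ribosomal proteins lie at the top and pericentral, complement and sex-biased genes at the bottom.

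Among the large rises outside lipid metabolism were a receptor gene and genes of growth arrest. Lepr, the receptor for leptin (chr4:101717407-101815354, plus strand on mm10), was at 5.43, 10.8 and 5.88 CPM in the fed libraries and 141, 48.8 and 550.3 CPM in the fasted ones, a log2 change of 5.10 ± 1.06 (SE, n = 3 against 3; adjusted p = 0.0070). All fasted libraries lay above all fed ones, and fasted C was the highest by far. Cdkn1a, the cyclin-dependent kinase inhibitor p21, was at 2.25, 1.89 and 0.552 CPM in the fed libraries and 46.4, 19.3 and 40.98 CPM in the fasted ones, a change of 4.54 ± 0.72 (SE, n = 3 against 3; adjusted p = 0.00167). Its groups did not overlap either, which the rule for naming the top genes required of both.

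Gadd45b, a growth arrest and stress gene, was at 0.494, 0.484 and 0.201 CPM in the fed libraries and 8.0, 5.76 and 13.4 CPM in the fasted ones, and rose by 4.55 ± 0.51. Dusp8, a phosphatase that inactivates MAP kinases, was at 0.429, 0.308 and 0.126 CPM in the fed libraries and 10.7, 5.41 and 6.78 CPM in the fasted ones, and rose by 4.73 ± 0.51. Slc41a3, a magnesium transporter of mitochondria, was at 1.31, 1.54 and 1.81 CPM in the fed libraries and 47.3, 31.8 and 18.8 CPM in the fasted ones, and rose by 4.41 ± 0.41. In each of these 3 genes the lowest fasted library exceeded the highest fed one, as the naming rule required. Low-level genes were also among the largest rises: Chrdl2, a secreted BMP antagonist, had 9 counts in all fed and 317 in all fasted libraries, and Cox6b2, a testis form of a cytochrome oxidase subunit, 7 and 151. Adra2a, an alpha-2 adrenergic receptor and the largest called change among G protein-coupled receptors, had 0 counts in fed and 111 in fasted libraries. Against a floor of 3 counts over the fed group it was 34.1-fold higher. The 95% interval from the pooled counts, which leaves out the spread between mice, begins at 27.3-fold.

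Some of the top genes lie close to or over another gene that moved. E030018B13Rik (5.08 ± 0.52) overlaps Klf13, on the opposite strand, which rose by 0.82 ± 0.19. Mtl5 (4.12 ± 0.58) starts 3124 bases beyond the end of Cpt1a on the same strand, and Cpt1a, one of the genes set aside, rose by 1.55. Acot1 and Acot2, acyl-CoA thioesterases of lipid metabolism that the set-aside list does not hold (5.11 and 4.07), are near-identical neighbours whose reads could be split between them. The part of these neighbours in the counts was not tested.

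The deepest falls included a neuronal receptor subunit, a prostaglandin synthase and a secreted protein. Chrna4, a neuronal nicotinic acetylcholine receptor subunit (chr2:181022311-181039177, minus strand), was at 77.4, 155 and 27.3 CPM in the fed libraries and 0.0275, 0.33 and 0 CPM in the fasted ones, a change of -9.14 ± 1.13 (SE, n = 3 against 3; adjusted p = 0.00131). Every fed library was at least 27.3 CPM and every fasted one below 1 CPM. Ptgds, which encodes prostaglandin D2 synthase, was at 12.5, 15.8 and 12.4 CPM in the fed libraries and 0.165, 0.0776 and 0.197 CPM in the fasted ones, a change of -6.57 ± 0.31 (SE, n = 3 against 3; adjusted p = 0.0002). A1bg, a secreted glycoprotein with female-biased liver expression, was at 93.1, 213 and 297 CPM in the fed libraries and 2.09, 1.61 and 1.78 CPM in the fasted ones, a change of -6.77 ± 0.51 (SE, n = 3 against 3; adjusted p = 0.000538). Neither of these 2 genes overlapped between groups, and the naming rule required this of all 3 genes.

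Dbp, the PAR bZIP factor of the clock, was at 17.5, 16.1 and 18.4 CPM in the fed libraries and 0.852, 0.951 and 0.592 CPM in the fasted ones, and fell with a log2 change of -4.39 ± 0.20. It overlaps Sphk2 on the opposite strand, whose change was -0.88. Slc22a26, an organic anion carrier, was at 49.2, 89.6 and 242 CPM in the fed libraries and 2.72, 2.85 and 7.37 CPM in the fasted ones, and changed by -4.90 ± 0.81. Mup3, a major urinary protein with near-identical copies, was at 102, 94.8 and 92.7 CPM in the fed libraries and 5.09, 7.0 and 3.29 CPM in the fasted ones, and changed by -4.20 ± 0.32. Htra4, a serine protease, went from 238 to 10 counts over the libraries of a group, Chrne, a nicotinic receptor subunit of muscle, from 135 to 4, and Nfe2, a blood cell transcription factor, from 149 to 8. Chrne overlaps 4930544D05Rik on the opposite strand.

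**Figure D2:**
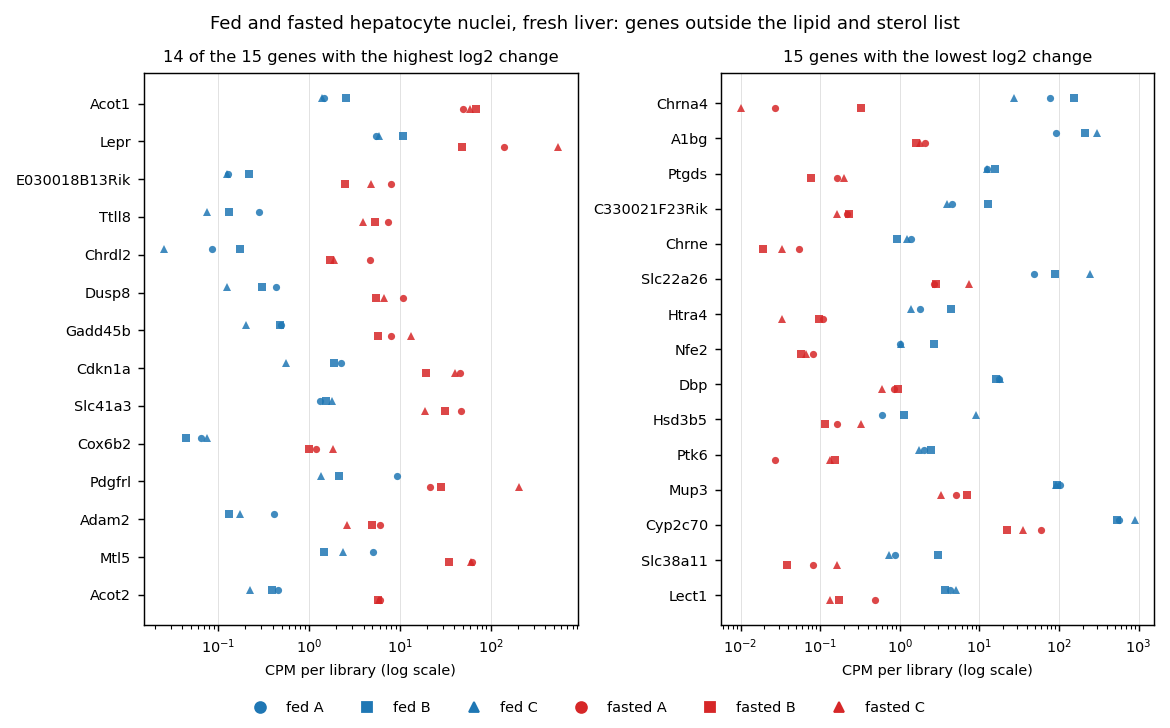
CPM per library, on a log axis, of 14 of the 15 genes with the highest (left) and the 15 with the lowest (right) log2 change among called genes with a mean of at least 1 CPM in 1 group, outside the set-aside list. Blue marks fed and red fasted libraries, circles A, squares B and triangles C; the 0 of Chrna4 in fasted C is drawn at 0.01 CPM. Fed and fasted libraries are apart in every row, which the naming rule required, and the spread within a group is wide for Hsd3b5 and Lepr.

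Of the called genes outside every list that changed by at least 1 log2 unit, those with the highest counts were named as well. Vwa8, a mitochondrial ATPase, was at 1655, 1222 and 1713 CPM in the fed libraries and 3494, 3379.8 and 2899.5 CPM in the fasted ones, a change of 1.11 ± 0.18 (SE, n = 3 against 3; adjusted p = 0.00587). Gfra1, a co-receptor for the growth factor GDNF, was at 819, 977 and 969.97 CPM in the fed libraries and 3072, 2869 and 4186 CPM in the fasted ones, a change of 1.89 ± 0.19 (SE, n = 3 against 3; adjusted p = 0.00121). Man2a1, an alpha-mannosidase of the Golgi that trims N-glycans, rose by 1.29 ± 0.07, and St3gal5, the sialyltransferase that makes the ganglioside GM3, by 2.53 ± 0.51. Fasted libraries lay above all fed ones in these 4 genes. Wwox, an oxidoreductase of a very long gene, was at 2703, 2696 and 2661 CPM in the fed libraries and 1263, 1092 and 1445 CPM in the fasted ones, and fell by 1.07 ± 0.12 on the log2 scale. Dlc1, a GTPase-activating protein, fell by 2.08 ± 0.22, Akr1c6, a hydroxysteroid dehydrogenase, by 1.55 ± 0.21, and Ces1c, a secreted carboxylesterase with close paralogs, by 1.78 ± 0.37. Ces1c stood at 1103, 1399.8 and 1969 CPM in the fed libraries and 289, 427 and 570.1 CPM in the fasted ones, with its highest fasted library under its lowest fed one.

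Of 18 core clock genes 1 was called higher and 7 lower, with a median of -0.30. The count of lower genes was 4, 4 and 4 when fed A, fed B and fasted A were left out in turn. Per1, a period gene that also responds to glucocorticoids and cAMP, was the single gene called higher, at 20.1, 5.06 and 5.55 CPM in the fed libraries and 126, 65.1 and 121 CPM in the fasted ones, a change of 3.35 ± 0.71 (SE, n = 3 against 3; adjusted p = 0.00607). Per3, another period gene, was at 60.4, 58.1 and 53.5 CPM in the fed libraries and 9.02, 10.05 and 12.1 CPM in the fasted ones, a change of -2.45 ± 0.13 (SE, n = 3 against 3; adjusted p = 0.000361). Nr1d1, which encodes the heme-binding repressor REV-ERB-alpha, was at 114, 138 and 152 CPM in the fed libraries and 28.3, 32.998 and 33.1 CPM in the fasted ones, a change of -2.08 ± 0.14 (SE, n = 3 against 3; adjusted p = 0.000531). The groups did not overlap in these 3 genes.

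The transcriptional repressors Bhlhe41 and Bhlhe40 changed by -2.68 ± 0.52 and -1.38 ± 0.43, the latter with adjusted p-values of 0.0537, 0.0552, 0.0564 and 0.052 without fed A, fed B, fasted A or fasted C. Arntl, the activator of the clock also called BMAL1, was at 263, 395 and 172 CPM in the fed libraries and 280.2, 313 and 238 CPM in the fasted ones, and its change of 0.02 ± 0.36 did not pass the test. Cry1, a repressor of the clock, had a change of 0.27 ± 0.34 and Per2 one of -0.46 ± 0.30, and neither passed (adjusted p = 0.443 and 0.166). Per2 passed without fed C, at -0.71 with an adjusted p of 0.00755. Among clock output factors, Tef, a PAR bZIP factor like Dbp, fell by 0.84 ± 0.13, while Usp2, a deubiquitinase, rose by 1.93 ± 0.16.

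Glucocorticoid-responsive genes had 11 of 26 tested members higher and 4 lower, with a median of 0.87, the highest of all lists. The count of higher genes was 8 to 12 with any 1 library left out, and that of lower genes 2 and 2 when fasted B and fasted C were left out in turn. Zbtb16, a zinc finger factor, was at 241, 233 and 425 CPM in the fed libraries and 2793, 2520.3 and 1948 CPM in the fasted ones, a change of 3.03 ± 0.32 (SE, n = 3 against 3; adjusted p = 0.00107). Klf9, a Krüppel-like factor, was at 204, 183 and 166 CPM in the fed libraries and 363, 303 and 347 CPM in the fasted ones, a change of 0.89 ± 0.12 (SE, n = 3 against 3; adjusted p = 0.00366). Igfbp1, an insulin-like growth factor binding protein, rose by 2.51 ± 1.01, with adjusted p-values of 0.0769, 0.0528, 0.101 and 0.0721 without fed A, fed B, fasted A or fasted C. The receptor itself, Nr3c1, was at 516, 485 and 517 CPM in the fed libraries and 271, 295 and 323 CPM in the fasted ones, and fell by 0.75 ± 0.08 (adjusted p = 0.00543). Serpina6, which encodes the plasma carrier of corticosteroids and is not in this list, was at 138, 198 and 99.5 CPM in the fed libraries and 6.82, 21.9 and 12.4 CPM in the fasted ones, and fell by 3.38 ± 0.56 (adjusted p = 0.00243).

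Of 31 insulin signalling genes 5 were higher and 2 lower. The count of higher genes was 2, 2, 1, 2 and 2 when fed A, fed B, fasted A, fasted B and fasted C were left out in turn. Foxo1, the forkhead factor that insulin keeps out of the nucleus, was at 408, 366 and 366 CPM in the fed libraries and 1422, 780.3 and 773 CPM in the fasted ones, a change of 1.41 ± 0.30 (SE, n = 3 against 3; adjusted p = 0.0079). Irs2, an insulin receptor substrate, rose by 1.37 ± 0.49, with an adjusted p of 0.091 without fasted A. Txnip, an arrestin-like protein that restrains glucose uptake and is not in this list, was at 6.51, 4.71 and 4.72 CPM in the fed libraries and 37.6, 57.7 and 63.6 CPM in the fasted ones, a change of 3.33 ± 0.28 (SE, n = 3 against 3; adjusted p = 0.000532), and its groups did not overlap. Pik3r1, a regulatory subunit of PI3 kinase, changed by -0.79 ± 0.19, with adjusted p-values of 0.0547 and 0.0539 without fasted B or fasted C.

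Regulators of mTORC1, the kinase complex that couples amino acids to protein synthesis, had 3 of 40 members higher and 8 lower, with a median of -0.09. The count of lower members was 5, 3 and 3 when fed B, fasted A and fasted B were left out in turn. Mtor, the kinase, was at 153, 138 and 169 CPM in the fed libraries and 234, 297 and 266 CPM in the fasted ones, a change of 0.81 ± 0.13 (SE, n = 3 against 3; adjusted p = 0.00636). Fnip2, a partner of folliculin, changed by -1.28 ± 0.29 and overlaps Gm17359 on the opposite strand, and Sesn3, a stress-induced inhibitor, fell by 0.90 ± 0.21. Eef2k, the kinase that slows translation elongation and a member of the translation factor list, was at 21.9, 24.9 and 42.3 CPM in the fed libraries and 8.22, 11.7 and 6.64 CPM in the fasted ones, a change of -1.73 ± 0.38 (SE, n = 3 against 3; adjusted p = 0.00765). Ddit4, an inhibitor of mTORC1 known to respond to stress hormones, was at 2.62, 3.65 and 1.81 CPM in the fed libraries and 1.1, 1.11 and 1.25 CPM in the fasted ones, and its change of -1.19 ± 0.29 passed (adjusted p = 0.0248) but had adjusted p-values of 0.0611, 0.0668, 0.0877, 0.0647 and 0.0509 without fed A, fed B, fasted A, B or C.

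Immediate early and stress genes had 5 of 21 members higher and 1 lower, the former count being 3, 2 and 3 when fed C, fasted A and fasted C were left out in turn. Egr1, an immediate early zinc finger factor, was at 3.71, 3.78 and 3.44 CPM in the fed libraries and 15.8, 6.93 and 12.5 CPM in the fasted ones, a change of 1.70 ± 0.35 (SE, n = 3 against 3; adjusted p = 0.00677). Cyr61, a matricellular protein, fell by 1.21 ± 0.24. Among growth arrest genes Gadd45a changed by -2.42 ± 0.54, opposite to its relative Gadd45b, and Bbc3, a pro-apoptotic target of p53, by -1.75 ± 0.33. MAP kinase feedback genes had 4 of 22 members higher and 4 lower. Besides Dusp8, Dusp3 rose by 1.51 ± 0.20 and the transcription factor Ets2 by 1.236 ± 0.14, while the receptor tyrosine kinase inhibitor Spry4 fell by 2.09 ± 0.60. The cAMP and glucagon list had 7 of 37 higher and 1 lower, and the count of higher members was 3, 3, 4, 1 and 3 when fed A, fed B, fed C, fasted A and fasted C were left out in turn.

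Among growth factor and cytokine receptors more genes were lower than higher. Of 51 tested genes 11 were lower and 3 higher, and the count of lower genes was 7 without fasted A. Ghr, the growth hormone receptor, was at 8676, 7707 and 9854 CPM in the fed libraries and 4301, 4313 and 3684 CPM in the fasted ones, a change of -1.08 ± 0.13 (SE, n = 3 against 3; adjusted p = 0.00543). Ntrk2, the receptor for brain-derived neurotrophic factor, was at 112, 201 and 142 CPM in the fed libraries and 9.51, 9.51 and 10.1 CPM in the fasted ones, a change of -3.95 ± 0.25 (SE, n = 3 against 3; adjusted p = 0.000361). Lifr, the leukemia inhibitory factor receptor, was at 856, 877 and 2717 CPM in the fed libraries and 203, 130.5 and 178 CPM in the fasted ones, a change of -3.11 ± 0.58 (SE, n = 3 against 3; adjusted p = 0.00513). Fed C was the highest library for Lifr, and each fed library exceeded each fasted one in all 3 genes.

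Among the 3 receptor genes that rose were Lepr, described above, and Il22ra1, a chain of the interleukin 22 receptor (1.73 ± 0.46). Vldlr, the very low density lipoprotein receptor, fell by 1.85 ± 0.27. Esr1, estrogen receptor alpha, was at 823, 977 and 518 CPM in the fed libraries and 335, 211 and 352 CPM in the fasted ones, a change of -1.35 ± 0.36 (SE, n = 3 against 3; adjusted p = 0.0126). In the list of 27 tested nuclear receptors, which holds Esr1 but not Nr1d1, 4 were higher and 2 lower. These are 14.8% and 7.41%, against 12.4% and 12.6% over all tested genes. The count of higher receptors was 2, 1, 2, 1, 2 and 1 when fed A, fed B, fed C, fasted A, fasted B and fasted C were left out in turn. Igfbp5, which binds insulin-like growth factors, was at 8.05, 11.4 and 8.26 CPM in the fed libraries and 0.632, 0.951 and 0.296 CPM in the fasted ones, and fell by 3.80 ± 0.47.

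Of 35 BMP and TGF-beta pathway genes 3 were higher and 7 lower, the latter count being 2 when fasted A was left out. Hamp2, a paralog of the iron hormone hepcidin, was at 16.8, 25.1 and 16.3 CPM in the fed libraries and 0.742, 2.81 and 0.197 CPM in the fasted ones, a change of -3.84 ± 1.03 (SE, n = 3 against 3; adjusted p = 0.00744). Inhbc, an activin subunit of the liver, rose by 1.20 ± 0.11, while Inhba, another activin subunit, fell by 1.28 ± 0.37, with adjusted p-values of 0.0801 and 0.0585 without fasted A or fasted C. Skil, a repressor of SMAD signalling, rose by 1.80 ± 0.25. Of 28 Wnt pathway genes 2 were higher and 5 lower, and the Wnt feedback genes Nkd1 and Rnf43 fell by 1.53 ± 0.20 and 1.03 ± 0.15. Lrp5, a Wnt co-receptor, rose by 1.02 ± 0.12. The hepatocyte factors Foxa3 and Foxa2 moved apart, with changes of 1.32 ± 0.19 and -1.06 ± 0.20.

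**Figure D3:**
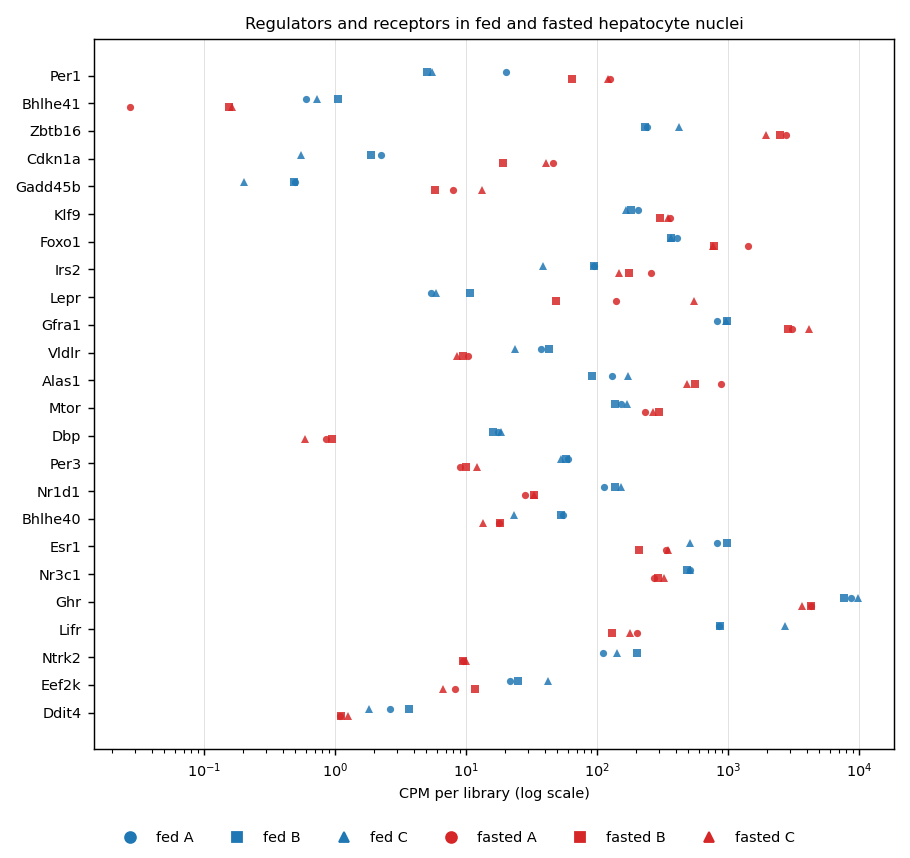
CPM per library, on a log axis, of 24 regulators and receptors named in the text. Blue marks fed and red fasted libraries, circles A, squares B and triangles C. The fasted points lie to the right of the fed ones for the genes from Per1 to Mtor except Bhlhe41 and Vldlr, and to the left for those from Dbp to Ddit4.

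Among genes of protein synthesis many were higher and very few lower. Of the 80 cytosolic ribosomal protein genes 73 were tested, 41 were higher and 0 lower, with a median log2 change of 0.62. By DESeq2 44 were higher. In each library the median member lay 0.07, 0.07 and -0.10 from the fed mean in fed A, B and C and 0.74, 0.36 and 0.57 in fasted A, B and C on the log2(CPM + 0.5) scale. By subunit, 22 of 43 large and 19 of 30 small subunit genes were higher. The count was 17, 22, 21, 12 and 21 when fed A, fed B, fed C, fasted A and fasted C were left out in turn, while the median stayed between 0.50 and 0.72 over all alternatives. Each of the genes below encodes 1 protein of the ribosome. Rpl10a was at 14.1, 13.5 and 9.52 CPM in the fed libraries and 29.5, 21.9 and 33.8 CPM in the fasted ones, a change of 1.22 ± 0.26 (SE, n = 3 against 3; adjusted p = 0.0063). Rps28 was at 2.94, 3.43 and 3.16 CPM in the fed libraries and 8.36, 5.57 and 7.6 CPM in the fasted ones, a change of 1.19 ± 0.19 (SE, n = 3 against 3; adjusted p = 0.00677). Rps9, whose promoter is printed above, was at 8.39, 9.46 and 8.69 CPM in the fed libraries and 20.98, 14.4 and 18.2 CPM in the fasted ones, a change of 1.03 ± 0.17 (SE, n = 3 against 3; adjusted p = 0.00543). Fasted libraries lay above fed ones in these genes of the large and small subunit.

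Ribosomal protein genes are short, and 72 of the 73 span less than 10 kb. All tested genes under 5 kb had a median of 0.11, with 13.1% higher and 8.30% lower. Processed copies of ribosomal protein genes and small nucleolar RNAs in their introns could add or take reads. Their part in the change was not tested.

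Ribosome biogenesis genes had 27 of 64 members higher and 0 lower, with a median of 0.55. The count was 14, 12, 6 and 13 when fed A, fed B, fasted A and fasted C were left out in turn. Ddx21, a nucleolar RNA helicase, was at 19.2, 11.7 and 19.7 CPM in the fed libraries and 54.3, 30.8 and 47.7 CPM in the fasted ones, a change of 1.40 ± 0.34 (SE, n = 3 against 3; adjusted p = 0.00961). Nop10, a protein of small nucleolar ribonucleoproteins that guide RNA modification, rose by 1.13 ± 0.14, and Rrp12, a ribosome export factor, by 1.65 ± 0.47, with an adjusted p of 0.0517 without fasted A.

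Translation factors followed with 26 of 63 higher and 2 lower, among the latter the inhibitory kinase Eef2k described above. Their median was 0.43, and the count of higher members was 14, 16, 6 and 15 when fed A, fed B, fasted A and fasted C were left out in turn. Pabpc1, the cytoplasmic poly-A binding protein, was at 54.43, 39.2 and 41.5 CPM in the fed libraries and 97.3, 76.996 and 94.1 CPM in the fasted ones, a change of 1.01 ± 0.18 (SE, n = 3 against 3; adjusted p = 0.00455). Eif2b4, a subunit of the exchange factor for eIF2, rose by 0.92 ± 0.15, and Etf1, which ends translation at stop codons, by 0.81 ± 0.14. Of 22 aminoacyl-tRNA synthetases 4 were higher and 0 lower, and the count of higher ones was 1, 1, 0 and 2 when fed B, fed C, fasted A and fasted C were left out in turn. Mitochondrial ribosomal proteins had 12 of 77 higher and 0 lower, a count that was 4, 7, 7 and 4 when fed A, fed B, fed C and fasted A were left out in turn. Among them were Mrpl38 (1.41 ± 0.19) and Mrpl17 (1.18 ± 0.15). Of the 77 genes 55 span less than 10 kb, and the part of gene length was not tested here either.

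Proteasome subunits were also mostly higher. Of 46 tested proteasome subunits 32 were higher and 1 lower, with a median of 0.51. All 6 ATPases of the base, 6 of 7 subunits of the alpha ring, 6 of 7 constitutive subunits of the beta ring and 12 of 14 Psmd genes, most of them regulatory subunits, were higher, as were 2 of 9 genes of activators and other assembly factors. The count of higher subunits was 15 when fasted A was left out. Psmb3, a beta ring subunit, was at 18.1, 14.8 and 17.1 CPM in the fed libraries and 36.3, 29.9 and 30.6 CPM in the fasted ones, a change of 0.97 ± 0.12 (SE, n = 3 against 3; adjusted p = 0.00321). Psmd9, an assembly chaperone among the Psmd genes, rose by 0.90 ± 0.16, and Psme3, a nuclear activator, by 0.85 ± 0.17. The gene that fell was Psmb9, an interferon-induced subunit of the immunoproteasome, at 4.62, 5.85 and 4.47 CPM in the fed libraries and 1.21, 2.06 and 0.987 CPM in the fasted ones, a change of -1.77 ± 0.33 (SE, n = 3 against 3; adjusted p = 0.00645).

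Cytosolic heat shock genes had 16 of 42 members higher and 0 lower, with a median of 0.52. This count was the least stable of the protein quality lists, at 10, 4, 8, 1 and 4 when fed A, fed B, fed C, fasted A and fasted C were left out in turn. Cct3, a subunit of the CCT chaperonin that folds actin and tubulin, was at 32.8, 21.5 and 27.7 CPM in the fed libraries and 51.6, 41.6 and 62.6 CPM in the fasted ones, a change of 0.94 ± 0.25 (SE, n = 3 against 3; adjusted p = 0.0138), and 4 of 7 CCT subunits were higher. Hspb1, a small heat shock protein, was at 0.129, 0.264 and 0.126 CPM in the fed libraries and 0.33, 1.22 and 0.428 CPM in the fasted ones, and its change of 2.08 ± 0.60 passed the test with all 6 libraries (adjusted p = 0.0472) but had adjusted p-values of 0.14, 0.0738, 0.118, 0.0547, 0.146 and 0.0544 without fed A, B, C and fasted A, B, C. Chaperones of the endoplasmic reticulum did not share this direction, with 2 of 47 higher and 9 lower, the latter count being 3, 4, 1, 4 and 4 when fed A, fed B, fasted A, fasted B and fasted C were left out in turn. Pdia4, a disulfide isomerase, fell by 0.85 ± 0.13, and Hspa5, the main chaperone there, was at 54.1, 34.5 and 45.4 CPM in the fed libraries and 48.6, 34.1 and 43.9 CPM in the fasted ones and did not pass (adjusted p = 0.829).

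The nuclear-encoded respiratory chain had 32 of 86 tested members higher and 1 lower, with a median of 0.35. Of the 86 genes 59 span less than 10 kb. All tested genes under 5 kb had a median of 0.11 and those of 5 to 10 kb one of 0.07, and the part of gene length in this result was not tested. By complex, 14 of 43 genes of complex I, 2 of 4 of complex II, 3 of 10 of complex III with cytochrome c, 7 of 12 of complex IV and 6 of 17 of ATP synthase were higher. The count was 17, 18, 16, 9, 19 and 14 when fed A, fed B, fed C, fasted A, fasted B and fasted C were left out in turn. Cycs, which encodes cytochrome c, was at 5.84, 4.13 and 3.77 CPM in the fed libraries and 12.6, 9.0 and 8.39 CPM in the fasted ones, a change of 1.14 ± 0.26 (SE, n = 3 against 3; adjusted p = 0.0125). Atp5l, a subunit of ATP synthase, rose by 0.72 ± 0.10.

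Mitochondrial carriers had 13 of 42 members higher, or 7 when fasted A was left out, and 6 lower. The count of lower carriers was 2, 2, 3 and 2 when fed A, fed B, fasted A and fasted C were left out in turn. Slc25a47, a liver carrier, was at 109, 83.97 and 70.6 CPM in the fed libraries and 244, 339 and 263 CPM in the fasted ones, a change of 1.70 ± 0.23 (SE, n = 3 against 3; adjusted p = 0.00155). Slc25a22, a glutamate carrier, rose by 1.74 ± 0.26, Slc25a33, a pyrimidine nucleotide carrier, by 1.51 ± 0.19, and Slc25a20, the carnitine carrier, by 1.49 ± 0.24. Slc25a35 changed by -2.08 ± 0.43 and overlaps Rangrf on the opposite strand.

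**Figure D4:**
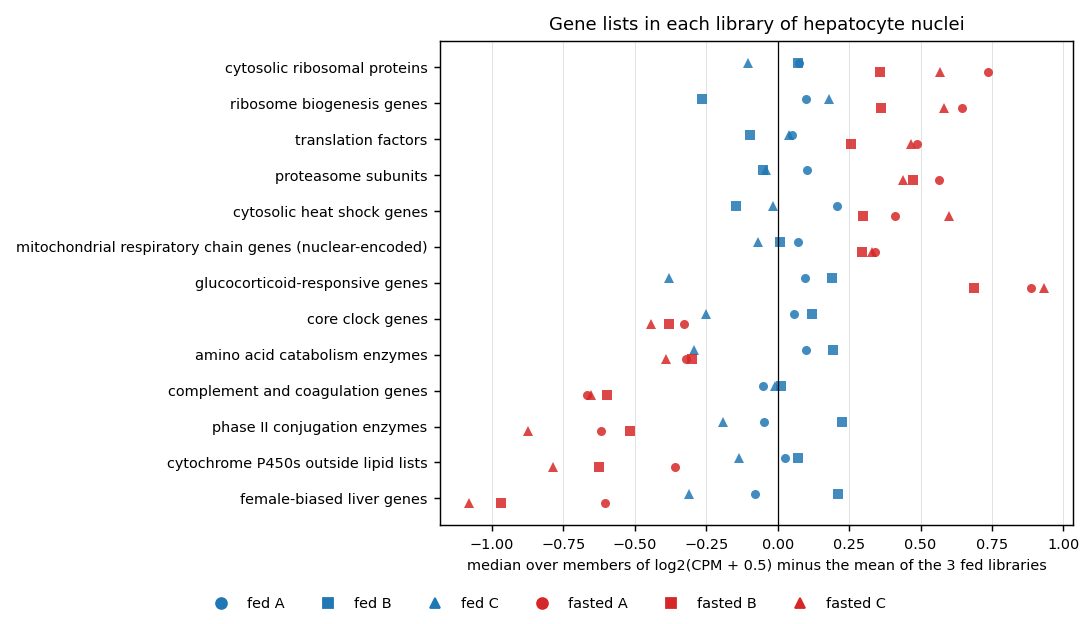
For 13 gene lists, the median over members of log2(CPM + 0.5) minus the mean of the 3 fed libraries, in each library. Blue marks fed and red fasted libraries, circles A, squares B and triangles C; fasted libraries lie to the right for protein synthesis, proteasome, heat shock and glucocorticoid genes and to the left for complement, phase II, P450 and female-biased genes.

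Genes of plasma proteins were lower more often than higher. Complement and coagulation genes had 25 of 54 members lower and 2 higher, with a median of -0.63, and 19 to 24 with any 1 library left out were lower. Of 25 complement genes 11 were lower and 0 higher, and of 29 coagulation and kinin genes 14 were lower. C9, which forms the pore of the membrane attack complex, was at 117, 133 and 192 CPM in the fed libraries and 26.6, 31.3 and 42.6 CPM in the fasted ones, a change of -2.12 ± 0.29 (SE, n = 3 against 3; adjusted p = 0.00166). Kng1, which encodes kininogen, was at 813, 938 and 989 CPM in the fed libraries and 243, 248 and 288 CPM in the fasted ones, a change of -1.80 ± 0.11 (SE, n = 3 against 3; adjusted p = 0.000788). Its near-identical copy Kng2 fell by 1.37 ± 0.16, and reads could be split between them. The fed and fasted libraries did not overlap for C9 and Kng1.

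Not every plasma protein gene passed. Fga and Fgb, chains of fibrinogen, were highest in fed B, with changes of -1.07 ± 0.53 and -0.66 ± 0.53 and adjusted p-values of 0.0879 and 0.261. Fga passed by DESeq2 (adjusted p = 0.0173) and without fed A (adjusted p = 0.0499). Alb, the gene of serum albumin, was at 2331, 2269 and 2175 CPM in the fed libraries and 3946, 3239 and 4289 CPM in the fasted ones, and rose by 0.78 ± 0.12 (adjusted p = 0.0123, and 0.0509 without fasted A). Of 37 acute phase genes 3 were higher and 12 lower, the latter count being 8 to 12 with any 1 library left out. Orm3, an orosomucoid with close paralogs, was at 10.7, 11.4 and 4.62 CPM in the fed libraries and 1.13, 0.795 and 0.0658 CPM in the fasted ones, and fell by 3.67 ± 1.11 (adjusted p = 0.00804). Mug2, a protease inhibitor related to alpha-2-macroglobulin, fell by 1.82 ± 0.36, and Il1rn, the interleukin 1 receptor antagonist, rose by 2.003 ± 0.47.

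Among secreted hormones of the liver 10 of 33 tested genes were higher and 7 lower (4 lower without fed B). Tsku, a secreted leucine-rich protein, was at 17.5, 28.5 and 4.82 CPM in the fed libraries and 219.6, 146 and 101 CPM in the fasted ones, a change of 3.24 ± 0.83 (SE, n = 3 against 3; adjusted p = 0.00825). Fgf21, the fasting hormone of the liver, rose by 5.03 ± 0.58, and Angptl4, an inhibitor of lipoprotein lipase, by 3.52 ± 0.55.

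In drug and steroid metabolism lower genes outnumbered higher ones in several enzyme families. Of 61 tested cytochrome P450 genes outside the set-aside list 26 were lower and 6 higher, with a median of -0.50, and 20 to 26 with any 1 library left out were lower. Cyp1a2, which oxidises caffeine and aromatic amines, was at 42.1, 65.3 and 41.4 CPM in the fed libraries and 6.32, 4.33 and 8.22 CPM in the fasted ones, a change of -2.97 ± 0.34 (SE, n = 3 against 3; adjusted p = 0.00105). Cyp2c70, which makes muricholic acids, was at 560.5, 534 and 894 CPM in the fed libraries and 59.3, 22.2 and 35.2 CPM in the fasted ones, a change of -4.07 ± 0.47 (SE, n = 3 against 3; adjusted p = 0.00116). Cyp2a5, a coumarin hydroxylase, was at 154, 156 and 112 CPM in the fed libraries and 17.7, 18.4 and 22.4 CPM in the fasted ones, a change of -2.83 ± 0.19 (SE, n = 3 against 3; adjusted p = 0.000361). Each fed library exceeded each fasted one in these genes, which the naming rule required of Cyp2c70. Over all tested genes 44.9% had no overlap between the groups.

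By family, 8 of 14 Cyp2c genes were lower and 0 higher with a median of -1.57, and 2 of 4 Cyp2a genes were lower. Cyp2j genes went the other way, with 3 of 4 higher and a median of 0.88. Cyp3a genes were split, with 1 of 8 higher and 3 lower, and Cyp3a16 fell by 2.99 ± 0.55. Members of these families are close in sequence, and the authors' counting could share reads between them. Alas1, which makes the first committed intermediate of heme, the prosthetic group of P450s, was at 129.9, 91.8 and 172 CPM in the fed libraries and 885, 564 and 486 CPM in the fasted ones, a change of 2.31 ± 0.37 (SE, n = 3 against 3; adjusted p = 0.00272). Cpox, a later enzyme of heme synthesis, rose by 1.23 ± 0.15, and Ppox, which acts after it, fell by 0.95 ± 0.12.

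Phase II enzymes, which conjugate drugs and steroids, had 20 of 54 members lower and 2 higher, with a median of -0.74, and 14 to 25 with any 1 library left out were lower. Glutathione transferases (7 of 17 lower, 1 higher), sulfotransferases (5 of 13 lower) and UDP-glucuronosyltransferases (3 of 10 lower) shared the direction. Inmt, an indole methyltransferase, was at 208, 358 and 172 CPM in the fed libraries and 9.87, 17.96 and 21.1 CPM in the fasted ones, a change of -3.89 ± 0.46 (SE, n = 3 against 3; adjusted p = 0.00106). Sult2a7 and Sult2a8, near-identical hydroxysteroid sulfotransferases, fell by 3.19 ± 0.83 and 3.16 ± 0.25. Gstm1, a glutathione transferase, fell by 1.35 ± 0.30.

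Organic ion carriers had 10 of 28 tested members lower and 1 higher, and the count of lower members was 5 and 4 when fed B and fasted A were left out in turn. Slc22a7, an organic anion transporter, was at 8.7, 7.96 and 4.19 CPM in the fed libraries and 0.852, 0.679 and 0.362 CPM in the fasted ones, a change of -3.41 ± 0.47 (SE, n = 3 against 3; adjusted p = 0.00161). The gene that rose was Slc22a5, a carnitine transporter, at 75.5, 57.8 and 44.8 CPM in the fed libraries and 352, 336 and 185 CPM in the fasted ones, a change of 2.32 ± 0.37 (SE, n = 3 against 3; adjusted p = 0.00209). The groups did not overlap in either.

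Lower genes also outnumbered higher ones among genes with female-biased and with male-biased expression. Of 39 female-biased genes 18 were lower and 2 higher with a median of -1.20, and of 27 male-biased genes 12 were lower and 1 higher with a median of -0.62. The counts of lower members were 14 to 21 with any 1 library left out for the former and 7 when fasted A was left out for the latter. Besides A1bg, Slc22a26 and Ntrk2, the female-biased Prom1, a membrane glycoprotein, changed by -3.62 ± 1.14, with adjusted p-values of 0.0926, 0.0677 and 0.0633 without fasted A, B or C. Selenbp2, a selenium-binding protein with male bias, was at 3.24, 5.98 and 5.15 CPM in the fed libraries and 0.55, 0.33 and 0.987 CPM in the fasted ones, a change of -2.96 ± 0.49 (SE, n = 3 against 3; adjusted p = 0.00368). Hsd3b5, a male-biased steroid dehydrogenase, was at 0.601, 1.14 and 9.14 CPM in the fed libraries and 0.165, 0.116 and 0.329 CPM in the fasted ones, and its change of -4.23 ± 1.20 had adjusted p-values of 0.107, 0.0808 and 0.0643 without fasted A, B or C. All 6 mice were female.

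Along the lobule, pericentral genes had 17 of 35 members lower and 5 higher with a median of -0.59, and periportal genes 8 of 36 lower and 4 higher with a median of -0.09. The periportal count of lower genes was 4, 4, 4, 5 and 4 when fed A, fed B, fasted A, fasted B and fasted C were left out in turn, and that of higher genes 2 when fasted A was left out. The periportal median turned positive without fed A (0.037), fed B (0.098) or fasted B (0.088). The pericentral count of lower members was 14 to 18 with any 1 library left out, and that of higher members 3 when fed A was left out. Rgn, a gluconolactonase of pericentral hepatocytes, was at 114, 161 and 149.9 CPM in the fed libraries and 12.3, 19.7 and 23.1 CPM in the fasted ones, a change of -2.93 ± 0.31 (SE, n = 3 against 3; adjusted p = 0.000855). The periportal Mfsd2a, a transporter of lysophosphatidylcholine, rose by 2.77 ± 0.62, while Ctsc, a lysosomal protease, fell by 1.81 ± 0.19. Several pericentral genes are also P450s, and the female-biased genes include the organic anion carrier Slc22a26 and the receptor Ntrk2. The lists therefore overlap and are not separate results, and a difference between the 2 zones was not tested.

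Amino acid catabolism had 20 of 59 enzymes lower and 5 higher, with a median of -0.33, and the count of lower enzymes was 11, 12, 11, 13 and 13 when fed A, fed B, fasted A, fasted B and fasted C were left out in turn. That of higher enzymes was 3, 3, 2, 3 and 3 when fed B, fed C, fasted A, fasted B and fasted C were left out in turn. Sdsl, a serine dehydratase-like enzyme, was at 7.34, 7.52 and 3.74 CPM in the fed libraries and 32.01, 20.2 and 34.99 CPM in the fasted ones, a change of 2.26 ± 0.41 (SE, n = 3 against 3; adjusted p = 0.00292). Csad, which makes hypotaurine on the way to taurine, was at 15.2, 30.6 and 18.6 CPM in the fed libraries and 50.1, 63.1 and 95.3 CPM in the fasted ones, a change of 1.72 ± 0.40 (SE, n = 3 against 3; adjusted p = 0.00822). Gcat, which breaks down threonine-derived 2-amino-3-ketobutyrate, fell by 1.55 ± 0.38 and overlaps Galr3 on the same strand.

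In the urea cycle Otc, ornithine transcarbamylase, was at 781, 888 and 448 CPM in the fed libraries and 195, 232 and 314 CPM in the fasted ones, a change of -1.49 ± 0.36 (SE, n = 3 against 3; adjusted p = 0.00862). Cps1, which starts the cycle, was at 9436, 8728 and 5136 CPM in the fed libraries and 14258, 9109 and 12826 CPM in the fasted ones, and its change of 0.66 ± 0.34 did not pass (adjusted p = 0.114). Among 17 urea cycle and ammonia genes 2 were higher and 3 lower, or 11.8% and 17.6%, against 12.4% and 12.6% over all tested genes.

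Of 39 methionine, one-carbon and choline genes 6 were higher and 5 lower, and of 49 nucleotide metabolism genes 5 were higher and 7 lower, shares near those over all genes. The one-carbon count of lower genes was 3, 3 and 3 when fed B, fasted A and fasted C were left out in turn. Mthfd1l, a mitochondrial enzyme that releases formate, was at 6.12, 8.27 and 9.22 CPM in the fed libraries and 44.3, 36.96 and 81.7 CPM in the fasted ones, a change of 2.80 ± 0.39 (SE, n = 3 against 3; adjusted p = 0.00167). Slc19a1, the reduced folate carrier, rose by 1.42 ± 0.24. Paox, a polyamine oxidase, fell by 2.52 ± 0.21. Upp2, a uridine phosphorylase of the liver, was at 1135, 1131 and 449 CPM in the fed libraries and 128, 115 and 229 CPM in the fasted ones, a change of -2.50 ± 0.54 (SE, n = 3 against 3; adjusted p = 0.00556). Ctps, which makes CTP, rose by 1.79 ± 0.35, and Ampd1, an AMP deaminase, by 2.53 ± 0.49. Tk1, thymidine kinase, changed by -2.97 ± 0.51 and overlaps Afmid on the opposite strand (-1.32 ± 0.31).

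Transporters of the plasma membrane moved both ways. Of 29 amino acid transporters 2 were higher and 6 lower (3 lower without fasted A), and Slc38a3, a glutamine transporter, was at 2704, 2851 and 2122 CPM in the fed libraries and 613, 945 and 761 CPM in the fasted ones, a change of -1.71 ± 0.22 (SE, n = 3 against 3; adjusted p = 0.00173). Slc6a8, the creatine transporter, was at 0.709, 0.968 and 0.979 CPM in the fed libraries and 4.29, 3.14 and 4.31 CPM in the fasted ones, a change of 2.17 ± 0.21 (SE, n = 3 against 3; adjusted p = 0.00191). Slc13a2, a citrate and succinate transporter, fell by 2.48 ± 0.65, and Slc2a5, the fructose transporter, by 1.98 ± 0.45. Over all 242 tested solute carrier genes 34 were higher and 40 lower, close to the share over all genes. These counts were 20 and 18 when fed A and fasted A were left out in turn for higher and 25, 21, 24 and 25 when fed A, fed B, fasted A and fasted C were left out in turn for lower genes.

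Glucose genes had 10 of 58 members higher and 10 lower, and the count of lower genes was 6, 6 and 2 when fed A, fed B and fasted A were left out in turn. Pfkfb2, which sets the level of fructose 2,6-bisphosphate, was at 99.1, 86.2 and 96.9 CPM in the fed libraries and 345, 219 and 275 CPM in the fasted ones, a change of 1.59 ± 0.20 (SE, n = 3 against 3; adjusted p = 0.00157), and overlaps Yod1 on the opposite strand. Pklr, the liver pyruvate kinase, fell by 1.71 ± 0.46, with an adjusted p of 0.0531 without fasted A. Ppp1r3g, a glycogen-targeting subunit of protein phosphatase 1, had 10 counts in fed and 149 in fasted libraries, with an adjusted p of 0.0529 without fed A.

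Interferon-stimulated and antigen presentation genes had 10 of 56 members lower and 2 higher, and the count of lower members was 7 to 10 with any 1 library left out. Irf1, a transcription factor of interferon responses, was at 34.03, 46.01 and 38.7 CPM in the fed libraries and 11.5, 13.9 and 12.1 CPM in the fasted ones, a change of -1.65 ± 0.15 (SE, n = 3 against 3; adjusted p = 0.000963). Gbp3 and Gbp7, related guanylate-binding proteins, fell by 1.86 ± 0.17 and 1.58 ± 0.21. The median change of this list in supernatant was -0.37, against -0.27 in IP. Kupffer cell and lymphocyte marker sums overlapped between fed and fasted IP, as given above, and the part of such nuclei in this result was not tested.

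Cell cycle genes had 12 of 47 members lower and 3 higher, the former count being 6 when fasted A was left out. Mki67, a marker of cycling cells, was at 2.08, 4.79 and 2.74 CPM in the fed libraries and 0.412, 0.427 and 0.395 CPM in the fasted ones, a change of -2.91 ± 0.35 (SE, n = 3 against 3; adjusted p = 0.00251). Top2a, topoisomerase II alpha, fell by 2.66 ± 0.37. The median change of this list in supernatant was -0.70, against -0.40 in IP. In IP the summed endothelial markers were 88.9 to 169 CPM in fed and 46.5 to 105 CPM in fasted libraries and stellate cell markers 78.6 to 139 and 58.8 to 75.04 CPM, and their part in this result was not tested.

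The fasting change in hepatocyte nuclei was set against that of the nuclei left in supernatant by testing the difference of the 2 changes. This difference passed the test in 1367 of 14322 genes, 9.54%, of which 532 (3.71%) were more positive and 835 (5.83%) more negative in IP. Ribosomal protein genes had 14 members with a more positive change in IP and 0 with a more negative one, and their median change was 0.62 in IP and -0.01 in supernatant. For proteasome subunits the counts were 9 and 1 with medians of 0.51 and 0.05, and for ribosome biogenesis genes 8 and 0 with medians of 0.55 and 0.03. Complement and coagulation genes had 1 and 9, with medians of -0.63 and 0.03, and core clock genes 0 and 7. Glucocorticoid-responsive genes had 3 and 4 of 26, with medians of 0.87 in IP and 0.85 in supernatant, so that members differed in both directions.

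At single genes the difference was large for Ddit4, which changed by -1.19 ± 0.29 in IP (adjusted p = 0.0248, and 0.0877 without fasted A) and was at 0.71 ± 0.362 CPM in fed and 9.75 ± 5.66 CPM in fasted supernatant (SD, n = 3), a change of 3.76. The difference between these changes passed the test (adjusted p = 0.00239). Per1 changed by 2.43 in supernatant, and the difference of 0.86 had an adjusted p of 0.494. With summed hepatocyte markers at 982 CPM in fed and 1603 CPM in fasted mice, the supernatant was not free of hepatocyte RNA, and the marker level was higher in fasted mice. The median change of these markers was 0.56 in supernatant and 0.28 in IP. The part of this RNA in the differences of genes and lists, complement and coagulation genes included, was not tested.

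The count of differing genes was 2307 by DESeq2, and it was 793 without IP fasted A, 771 without supernatant fasted A, 816 without supernatant fed C and 852 without supernatant fasted C. IP and supernatant came from the same mice, and blocking on mouse gave 1464.

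**Figure D5:**
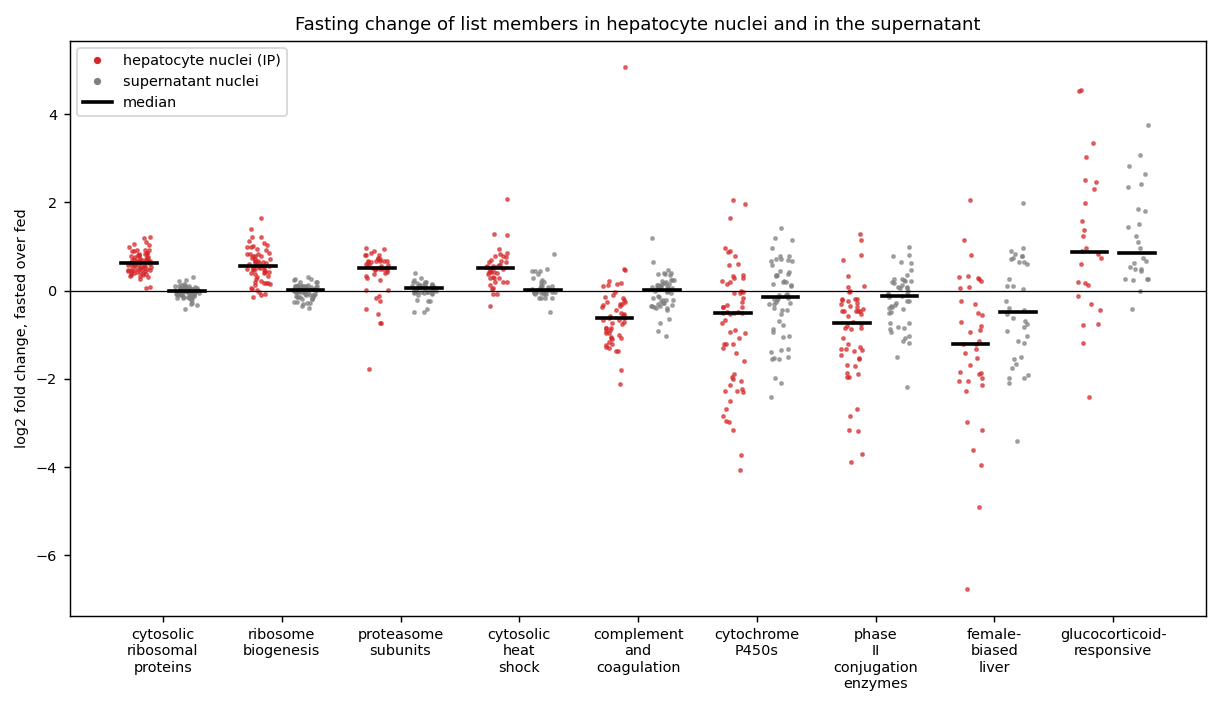
Log2 change, fasted over fed, of every tested member of 9 gene lists in hepatocyte nuclei (red) and in supernatant nuclei (grey), with black bars at the medians. Protein synthesis, proteasome and heat shock genes have medians above 0 in hepatocyte nuclei and near 0 in supernatant, and glucocorticoid-responsive genes have like medians in both.

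The share of changed genes varied with gene length. Of 159 tested genes over 500 kb, 3.77% were higher and 13.2% lower, with a median of -0.30. Genes of 20 to 50 kb had 12.8% higher and 14.7% lower with a median of 0.01. The long gene Wwox is one of those that fell. The median level was 8.38 CPM for genes over 500 kb and 34.7 CPM for those of 20 to 50 kb, so depth differed between these classes, and its part in the shares was not tested.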

How the data were processed

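Nuclear RNA of 6 female mice was sequenced as 18 libraries in 6 groups of 3, and 6 of these libraries are compared here. Per the labels' protocols, nuclei were lysed in Trizol, RNA was cleaned on columns with DNase, and stranded libraries without poly-A selection were read as paired ends. Per the submitters' processing notes, STAR 2.4.2a, DESeq2 1.24.0 and mm10 were used. The tool that counted reads and its strand setting are not given in the sources used here. Counts deposited by the authors are whole numbers for 20105 genes, with no normalization, and the length listed for each gene runs from its start to its end with introns. A further 6 columns of that table match no sample and were not used. The labels hold no column letters, so a column names a group and not a mouse.

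Fasted and fed IP were compared with edgeR 4.0.16 (quasi-likelihood test) in R 4.3.3, with TMM scaling, filterByExpr, no covariate and an adjusted p under 0.05. All adjusted p-values in the text are from edgeR unless another tool is named. Fold changes are edgeR's, and the SE comes from the spread of log2 CPM (prior count 2) in the 2 groups. Where an SD is given, n = 3. The difference between IP and supernatant was fitted as an interaction over their 12 libraries. Fed and fasted mice are different animals, so nothing pairs them. For IP and supernatant, libraries of the same letter correlated at 0.152 to 0.437 in their deviations from group means and those of other letters at -0.372 to 0.010, and the letter served as the mouse in a blocked alternative. No pair of libraries in a group differed by less than sampling noise (chi-square per gene of 54.84 or more). The 71 gene lists and the rules for naming genes were chosen with earlier results of these data known. Named were the 15 highest and 15 lowest changes among called genes with no overlap and a mean of at least 1 CPM in a group, up to 5 called members of each list by size of change, the 10 genes of highest level outside the lists that changed by at least 1, and the 6 highest and 6 lowest differences from supernatant. Members that did not pass are named by value, and 2 genes that the rules name are not reported here. Promoters are from the RefSeq table of GRCm38.p6, which had one for 9644 of the 12548 tested genes. Alternatives were DESeq2 1.42.0, its size factors, other filters, all 18 libraries in a joint fit, a test against 2-fold, and leaving out each library. The fit was tested on simulated data. Precision is limited by 3 mice a group, and the total counts behind it stand in the opening of the report.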

Additional observations from a re-analysis of the deposited data

Results flagged for a closer look

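In 12 genes the fasting change in hepatocyte nuclei differed most from that in supernatant, by the edgeR test of the difference itself, among genes called in both this test and the fasting comparison. More positive in hepatocyte nuclei were 1700039E15Rik, by 4.68 on the log2 scale, Cox6b2 by 4.61, Slc41a3 by 4.33, Gadd45b by 4.21, Cbfa2t3 by 4.17 and E030018B13Rik by 4.06. 1700039E15Rik had 8 counts in fed and 137 in fasted IP, and Cox6b2 7 and 151. Cbfa2t3, a transcriptional co-repressor, was at 2.55, 2.419 and 5.22 CPM in the fed libraries and 62.3, 68.5 and 22.6 CPM in the fasted ones.

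More negative in hepatocyte nuclei were Chrna4, with a difference of -7.32, Ptgds with -5.39, Chrne with -5.31, Tmem45b with -5.17, Ptk6 with -5.09 and Lect1 with -5.06. Ptk6, a tyrosine kinase of epithelia, was at 2.04, 2.46 and 1.76 CPM in the fed libraries and 0.0275, 0.155 and 0.132 CPM in the fasted ones of IP and at 0.13 ± 0.0905 CPM in fed and 0.237 ± 0.0289 CPM in fasted supernatant (SD, n = 3). Tmem45b fell by 1.98 ± 0.18 in IP and was at 0.0353 ± 0.0143 CPM in fed and 0.324 ± 0.50 CPM in fasted supernatant (SD, n = 3). Supernatant levels of Ptk6 and Tmem45b were under 1 CPM, so their differences rest in part on values near the floor. For Tmem45b the difference of -5.17 rests largely on supernatant, where the fasted SD exceeded the mean. Adjusted p-values of the 12 differences ran from 0.000415 to 0.0432.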

How the results depend on the processing

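None of the called genes named by rule changed direction under the alternatives run. Of the named genes that did not pass, 5 changed sign, with log2 changes of -0.61 to 1.01 for Igf1, -1.52 to 0.74 for Socs2, -0.23 to 0.37 for Arntl, -0.22 to 0.08 for Hspa5 and -0.0004 to 0.44 for Cry1, as did the median of periportal genes. The count of genes changed in fresh IP was 3738 by DESeq2, 3104 with its size factors, 3043 without a filter on low counts, 3024 at 1 CPM or more in 3 libraries and 4204 with all 18 libraries in a joint fit. Of the genes called in the main fit, 2164 were left when genes higher in supernatant were dropped. No new fit was made there, so that number could only fall. With 1 library left out the count of changed genes ran from 1429 to 2643, with 652 to 1249 higher and 777 to 1479 lower. The count of genes whose change differed between IP and supernatant was 2307 by DESeq2 and 771 to 1485 with a library left out. For this difference the mouse as a replicate block gave 1464. In the fasting comparison no paired analysis was possible because fed and fasted libraries come from different mice. Of the 312 called genes named by rule, 311 were also called by DESeq2, 217 without fasted A and 248 without fed B, while 109 lost the call without at least 1 library. A test beyond 2-fold called 81 of them. Leaving out libraries for the counts of list members was chosen after seeing the data. With 3 mice a group, a change that did not pass may be present and too small to detect, and leaving out a library tests 2 against 3.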

Other observations

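Ion channel genes had 17 of 92 tested members higher and 12 lower, counts that were 7, 9, 9, 8 and 11 when fed A, fed B, fed C, fasted A and fasted B were left out in turn for higher and 7 when fasted A was left out for lower genes. Nicotinic receptor subunits went both ways, since Chrna2 was at 0.386, 0.132 and 0.578 CPM in the fed libraries and 6.65, 6.36 and 2.53 CPM in the fasted ones, a change of 3.75 ± 0.69 (SE, n = 3 against 3; adjusted p = 0.00336), while Chrna4 and Chrne fell. Glra3, a glycine receptor subunit, fell by 2.87 ± 0.49, and Grid1, a glutamate receptor of the delta type, by 2.47 ± 0.16. Among G protein-coupled receptors 6 of 95 were higher and 10 lower (6 lower without fasted A), and Mtnr1a, a melatonin receptor, was at 0.644, 0.396 and 0.402 CPM in the fed libraries and 5.0, 3.47 and 1.45 CPM in the fasted ones, a change of 2.77 ± 0.56 (SE, n = 3 against 3; adjusted p = 0.00731).

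Single members of other lists changed by more than 1 log2 unit. Tuba8, an alpha tubulin, was at 0.215, 0.968 and 0.301 CPM in the fed libraries and 3.93, 3.51 and 4.93 CPM in the fasted ones, a change of 3.21 ± 0.60 (SE, n = 3 against 3; adjusted p = 0.00491). Lamb3, a laminin chain, rose by 2.86 ± 0.76, and Setd7, a lysine methyltransferase, by 1.55 ± 0.08. Sun2, of the inner nuclear membrane, was at 45.8, 49.6 and 42.9 CPM in the fed libraries and 77.4, 151 and 81.5 CPM in the fasted ones, a change of 1.18 ± 0.32 (SE, n = 3 against 3; adjusted p = 0.0138), and Lmnb1, which encodes lamin B1, fell by 1.32 ± 0.21. Sun1, a relative of Sun2 and a gene related to the nuclear tag, was at 188, 185 and 124 CPM in the fed libraries and 301, 181 and 203 CPM in the fasted ones, and its change of 0.49 ± 0.30 did not pass (adjusted p = 0.159). Reads from the tag could add to its counts, and their part was not tested. Aox3, an aldehyde oxidase, fell by 1.69 ± 0.18, Bco2, which cleaves carotenoids, by 1.09 ± 0.19, and Hdac11, a histone deacetylase, by 1.11 ± 0.22.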
